A study of Mus musculus with 15 samples.

Results

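The 3 libraries described here hold the RNA of germinal vesicle (GV) oocytes that had grown in vivo (IVV), and they were taken by their sample titles from the 15 libraries of a series on mouse follicle culture. The other 12 libraries, of oocytes from preantral follicles grown in vitro with or without the neurotrophin NT-4, were not analysed here. Each IVV library pooled 6 oocytes of Kunming mice, an outbred stock, with no treatment or altered gene named. The series text gives an age of 12 to 14 days for the mice, and the study's methods name ovaries of 2-week-old and 6-week-old mice, without saying which age gave these oocytes. Cumulus oocyte complexes were punctured out of antral follicles and stripped of their cumulus cells with hyaluronidase, and their RNA was turned into libraries by SMART-Seq2, a protocol that starts cDNA at the poly(A) tail and multiplies it by PCR before sequencing. According to the study's methods each pool came from a replicated experiment of its own, and nothing further says which animals gave which pool. The titles number the libraries 2, 3 and 4, and these numbers are kept.

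A GV oocyte is arrested in prophase of meiosis I, with its chromatin in a large nucleus, the germinal vesicle. As it reaches full size in the antral follicle it stops transcribing, so that maturation, fertilization and the earliest divisions of the embryo draw on mRNA stored during growth. It is known for secreted factors that steer the surrounding granulosa cells, for the zona pellucida glycoproteins of its coat, for a maternal protein complex beneath its cortex, and for proteins that keep stored mRNA untranslated until needed.

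The libraries held 42724595, 19033272 and 43465801 counts in replicates 2, 3 and 4. The annotated rRNA gene CT010467.1 (chromosome 17, 39846353 to 39848827, minus strand, mm10) took 0.187%, 37.9% and 0.227% of them. Without that gene 42644727, 11813798 and 43367132 counts remained, and all counts-per-million values (CPM) below are relative to these totals. Replicate 3 therefore stood apart in its rRNA and was the shallowest library, and it also differed in other ways given below. Each result is given per library for that reason, and means that include replicate 3 are named as such. The amplified copies carry no molecular identifiers, so limits drawn from counts cover counting error only. In pools of this kind fewer oocytes and less RNA per oocyte cannot be told apart.

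Markers of the oocyte were looked at first. All 20 were above 1 CPM in every library, and together they held 39204, 30675 and 38328 CPM in replicates 2, 3 and 4. The list was chosen with earlier results of these data known, so this is a description. Such markers cannot tell the stage of an oocyte, or growth in vivo from growth in culture. The lists of other ovarian cells, which also had counts, are given further on.

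Counts were found for 22965, 22230 and 22813 genes of the 55400 listed. All 3 libraries shared 16425 genes, 29741 genes had a count in at least 1 library, and 25659 had none. At the depth of replicate 3, sampling without replacement would leave 21813 genes in replicate 2 and 21693 in replicate 4, so replicate 3 held more genes than the deeper libraries would at equal depth. A level of 1 CPM was reached by 14917, 17873 and 14949 genes. In all 3 libraries at once 12359 genes reached it, of which 10880 were protein-coding. Of the 21897 protein-coding genes, 13017 had a count in every library and 3886 (17.7%) had none in any.

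The genes that took most counts were a small set of oocyte genes, together with ubiquitin and lactate dehydrogenase. Ranked by mean CPM, the leading gene was Elobl (chromosome 11, 88964658 to 88966931, minus strand), an elongin B-like gene. It stood at 9433, 2067 and 9853 CPM in replicates 2, 3 and 4. Ubb (chromosome 11, 62551171 to 62553213), a polyubiquitin gene, followed with 11097, 798 and 9122 CPM. Dppa3 (chromosome 6, 122626410 to 122630272), whose product Stella protects the maternal genome from loss of DNA methylation, had 9939, 578 and 9520 CPM. For all of these, replicates 2 and 4 lay close together and replicate 3 lay far below.

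The next genes differed less between the libraries. Spin1 (chromosome 13, 51100880 to 51152546), a reader of histone methylation needed for the resumption of meiosis, had 6929, 5043 and 6171 CPM. Zbed3 (chromosome 13, 95323612 to 95337841), a partner of the subcortical maternal complex, had 4531, 7285 and 5190 CPM. Bcl2l10 (chromosome 9, 75347758 to 75351632), a member of the BCL2 family expressed in oocytes, had 6416, 4519 and 5703 CPM. These 3 genes alone stood among the first 10 in every library. Gdf9, the growth factor through which the oocyte acts on granulosa cells, had 5122, 3633 and 4763 CPM and ranked 8, 11 and 9 within the libraries.

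Genes of metabolism and of the mitochondrion belonged to the leading group too. Ldhb, a subunit of lactate dehydrogenase, had 7389, 921 and 7167 CPM. The mitochondrial large rRNA mt-Rnr2 had 1945, 10264 and 2580 CPM, and it was the first gene of replicate 3 but ranked 42 and 24 in the other libraries. Among the first 10 of replicate 3 were also Skp1a, Padi6, Bmp15, AU022751, Dnmt1 and Nlrp14, which ranked between 28 and 220 in replicates 2 and 4.

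**Figure D1:**
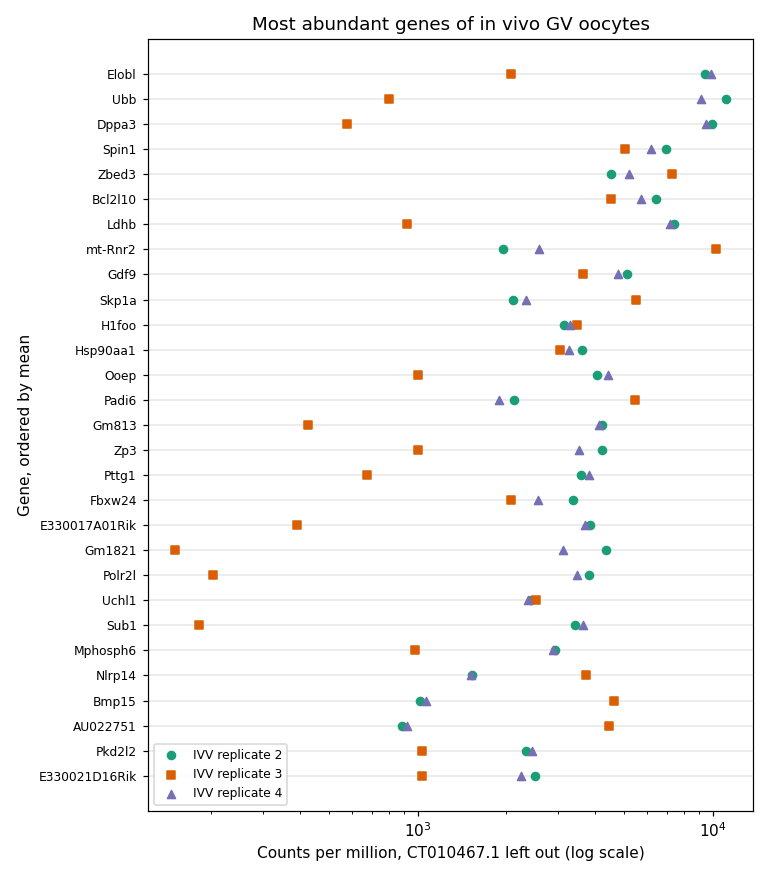
CPM (log axis) of 29 of the 30 genes with the highest mean over the 3 IVV libraries, ordered by that mean, with a point for each library. Replicates 2 and 4 lie within 2-fold of each other for every gene shown, while replicate 3 is the lowest library for 20 of them and the highest for 9.

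Of the 30 leading genes, 8 lay within 2-fold in all 3 libraries. Replicate 3 was the lowest library for 21 of them and the highest for 9, and for no gene did it lie between the others. With TMM factors replicate 3 was lowest for 23 and highest for 6, and with DESeq2 size factors lowest for 23 and highest for 7. The order also depends on that library: by the mean of replicates 2 and 4 alone, 9 of the first 10, 24 of the first 30 and 83 of the first 100 genes were the same. Among the first 10 genes by that mean were Ubb, Dppa3, Elobl, Ldhb, Spin1, Bcl2l10, Gdf9, Zbed3 and Ooep.

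Long transcripts yield more counts per molecule, so levels of different genes were compared as CPM per kb of exon. On that scale Elobl led by the mean and in replicates 2 and 4, with 11324, 2481 and 11829 CPM per kb in replicates 2, 3 and 4. In replicate 3 it was passed by mt-Rnr2 at 6488, Bcl2l10 at 3704, Zbed3 at 3265, H1foo at 2895 and Skp1a at 2486 CPM per kb. Dppa3 followed with 11143, 648 and 10673 CPM per kb, and then Bcl2l10 with 5259, 3704 and 4674 CPM per kb. The next places by the mean went to Ubb, Gm813, Ldhb, mt-Rnr2, H1foo, Gm1821 and Ndufa2, the last of these a short subunit of respiratory complex I that ranked 50 by CPM. The first 100 genes by CPM had a median exon length of 2010.5 bases, and 49 of them were under 2 kb. Protein-coding genes with a mean of at least 1 CPM had a median of 4437 bases.

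Some of the leading genes lay next to relatives, among which a count can be split. Gm813 and E330017A01Rik are neighbours on chromosome 16, from 58613675 to 58616978 and from 58635167 to 58638739. Gm813 had 4223, 424 and 4134 CPM and E330017A01Rik had 3841, 389 and 3697 CPM. The 13 oocyte F-box genes of the Fbxw group fill 651 kb of chromosome 9, from 109139447 to 109790670, all on the minus strand. All 13 were above 1 CPM in every library and 12 ranked among the first 1000 genes. Fbxw24, the most abundant, had 3357, 2074 and 2555 CPM, and Fbxw28 had 2458, 904 and 2083 CPM. Since such genes are alike in sequence, the share of each member is uncertain and the summed share of the group, 1.84%, 0.899% and 1.55% of counts, is the safer value.

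The promoters of Elobl, the leading gene by mean CPM, and of the oocyte markers Padi6 and Zp3 are shown here. The reason is that FIGLA, an oocyte transcription factor that acts on the zona genes, binds E-boxes. Each run has 250 bases before and 50 after the annotated start in the RefSeq annotation of GRCm38.p6, and capitals mark every match to CANNTG, which reads the same on both strands. The windows are chr11:88966882-88967181 (minus strand) for Elobl, chr4:140742594-140742893 (minus strand) for Padi6 and chr5:135979855-135980154 (plus strand) for Zp3.
Elobl: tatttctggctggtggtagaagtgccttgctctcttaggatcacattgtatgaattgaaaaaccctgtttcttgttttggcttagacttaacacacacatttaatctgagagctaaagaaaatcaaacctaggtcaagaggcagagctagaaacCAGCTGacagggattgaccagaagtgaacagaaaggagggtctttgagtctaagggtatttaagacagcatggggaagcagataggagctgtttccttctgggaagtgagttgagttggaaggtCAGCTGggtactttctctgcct
Padi6: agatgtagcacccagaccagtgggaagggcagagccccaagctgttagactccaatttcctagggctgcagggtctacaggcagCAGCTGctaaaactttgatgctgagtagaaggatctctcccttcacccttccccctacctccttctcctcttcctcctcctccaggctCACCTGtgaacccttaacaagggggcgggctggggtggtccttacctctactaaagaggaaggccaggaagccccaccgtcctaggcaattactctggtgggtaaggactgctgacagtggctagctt
Zp3: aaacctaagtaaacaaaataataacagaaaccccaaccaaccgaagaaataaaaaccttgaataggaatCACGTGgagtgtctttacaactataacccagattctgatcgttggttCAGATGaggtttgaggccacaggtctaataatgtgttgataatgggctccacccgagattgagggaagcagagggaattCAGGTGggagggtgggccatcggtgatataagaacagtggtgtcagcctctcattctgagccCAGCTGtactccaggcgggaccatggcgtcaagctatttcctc
Elobl and Padi6 hold 2 matches each and Zp3 holds 4. Of the 99 nuclear genes among the 100 most abundant protein-coding genes, 81 had a promoter in the table, and 59 of these (72.8%) held at least 1 match. Of the 744 genes with a promoter among the next 900 protein-coding genes 68.7% did, as did 74.99% of all 27025 genes with a promoter. The letters TATAAA, on either strand, were found for 8 of the 81 genes (9.88%), for 9.41% of the next genes and for 15.7% of all genes in the table. The median GC content was 56.7% for the 81 genes, 60.7% for the next genes and 52.8% for all. These are descriptions of annotated windows, and no measurement here gives the start sites used in these oocytes.

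Counts were spread over many genes. The first gene took 1.11%, 1.03% and 0.985% of counts in replicates 2, 3 and 4. The first 10 genes took 7.23%, 5.48% and 6.78%, and the first 100 took 24.6%, 18.4% and 23.7%. It took 561, 910 and 586 genes to reach 50% of counts and 4533, 5730 and 4563 genes to reach 90%. Replicate 3 was thus the least concentrated library by each of these measures except the share of the first gene, although it was also the shallowest. Per kb of exon the first 100 genes took 36.1%, 25.8% and 35.2%.

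**Figure D2:**
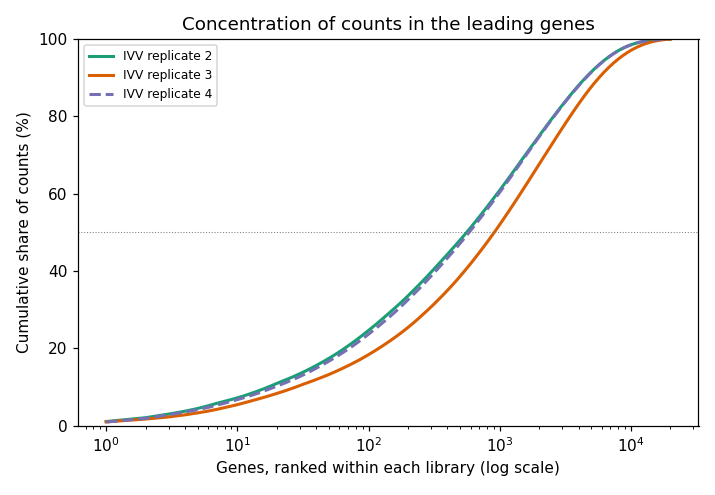
Cumulative share of counts (%) against the number of genes, ranked within each library from the most abundant (log axis), with a line for each library and a dotted line at 50%. The lines of replicates 2 and 4 run together and reach 50% at 561 and 586 genes, and the line of replicate 3 runs below them and reaches it at 910.

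Protein-coding genes took 93.4%, 94.7% and 93.1% of counts, and 95 of the first 100 genes were of this class. Long noncoding genes took 3.28%, 2.16% and 3.51%, with 681 of 9911 above 1 CPM in every library. Pseudogenes took 2.70%, 1.62% and 2.70%. Genes of small RNAs, which poly(A) priming largely misses, took 0.143%, 0.0619% and 0.101%. Noncoding and pseudogene shares were thus lower in replicate 3 than in the libraries beside it.

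The leading lincRNA was Gm3143 with 2412, 113 and 2695 CPM. C86187, also a lincRNA, had 810, 3290 and 848 CPM and so was most abundant in the library where Gm3143 was scarce. Gm16497 had 1179, 39.5 and 1244 CPM. The leading antisense gene was Gm42817 with 623, 66.5 and 670 CPM. No source used here says whether the counting used strand, so reads of an antisense gene and its partner cannot be told apart. The leading pseudogene was Gm1821, a transcribed processed pseudogene, with 4362, 151 and 3102 CPM. Rpl37rt, which resembles the ribosomal protein gene Rpl37, had 1484, 32.4 and 1641 CPM. Counts of processed pseudogenes are uncertain because reads of the parent mRNA can fall on them. Among small RNA genes the signal recognition particle RNAs led, with Rn7s2 at 419, 24.97 and 242 CPM and Rn7s1 at 407, 29.03 and 223 CPM.

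Mitochondrially encoded genes took 0.826%, 1.39% and 0.927% of counts. The 13 mitochondrial mRNAs took 0.541%, 0.290% and 0.551%, led by mt-Co1 of respiratory complex IV with 1795, 1091 and 1888 CPM. The mitochondrial rRNAs took 0.283%, 1.09% and 0.374%, so that rRNA and mRNA of the mitochondrion lay on opposite sides in replicate 3. The smaller rRNA mt-Rnr1, with 881, 627 and 1159 CPM, did not share the excess of mt-Rnr2 in that library.

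By chromosome, the X held 2.14%, 3.31% and 2.12% of counts. Bmp15 and AU022751 were the only X-linked genes among the first 30. The Y held 0.00257%, 0.00322% and 0.00339%. Chromosome 9 gave 13 and chromosome 5 gave 12 of the first 100 genes, and they hold 1208 and 1258 of the 21897 protein-coding genes. Chromosomes 7 and 11 gave 10 each, and hold 2022 and 1634. The Fbxw group made up 5 of the 13 on chromosome 9.

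**Figure D3:**
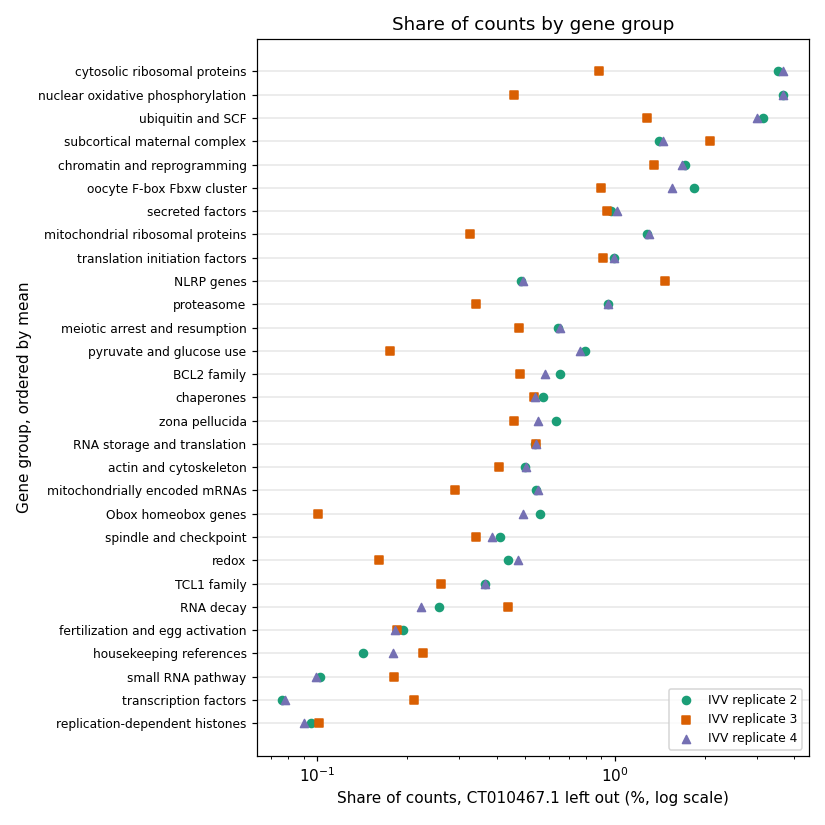
Share of counts (%, log axis) held by 29 gene groups in each IVV library, ordered by the mean, with a point for each library. The groups of short housekeeping genes, such as nuclear oxidative phosphorylation at 3.65%, 0.459% and 3.67%, lie far lower in replicate 3, while the NLRP genes lie higher there at 0.482%, 1.47% and 0.491%.

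Genes of the oocyte's outer face were abundant. The factors secreted by the oocyte took 0.969%, 0.942% and 1.01% of counts in replicates 2, 3 and 4. Beside Gdf9, its partner Bmp15 had 1020, 4620 and 1069 CPM. Oosp1, of a family of oocyte-secreted proteins, had 1361, 585 and 1837 CPM. The zona pellucida genes took 0.633%, 0.459% and 0.551%. Zp3, whose protein sperm meet in the coat, had 4212, 1002 and 3513 CPM. Zp2, cleaved after fertilization, had 1190, 2184 and 1142 CPM, and Zp1, which links the filaments of the coat, had 884, 1397 and 808 CPM. Per kb of exon, Zp3 stood at 3184, 758 and 2655 and Zp2 at 437, 802 and 419 CPM per kb. Zp3 thus exceeded Zp2 several-fold in replicates 2 and 4, and in replicate 3 both were near each other. The mouse zona pseudogene Zp4-ps had 41.5, 5.76 and 43.1 CPM. Among genes of fertilization, Astl, which encodes the protease ovastacin that cleaves ZP2, had 357, 418 and 315 CPM. Izumo1r, the egg receptor Juno for the sperm protein IZUMO1, had 307, 149 and 320 CPM. Cd9, a membrane protein required for fusion with sperm, had 225, 65.1 and 147 CPM.

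The subcortical maternal complex, which embryos need for the first cleavages, took 1.40%, 2.09% and 1.45% of counts. All 8 members looked for ranked among the first 1000 genes. Ooep, an RNA-binding KH-domain protein of the complex, had 4058, 999 and 4414 CPM. Padi6, a peptidylarginine deiminase of the oocyte's cytoplasmic lattices, had 2124, 5446 and 1881 CPM. Nlrp5, also known as Mater, had 778, 2635 and 753 CPM. Tle6 had 1254, 682 and 949 CPM, and Khdc3, known as Filia, had 690, 216 and 715 CPM. The members therefore did not move together on the scale of total counts. Zbed3, Padi6, Nlrp5, Nlrp4f and Nlrp2 were higher in replicate 3, and Ooep, Tle6 and Khdc3 lower. For Zbed3 the log2 ratio of replicate 3 to the mean of the others was 0.58, close to the median of 0.52 over 17367 genes. The higher share of the group in replicate 3 was 1.47 times the mean of the others on the scale of total counts and 0.965 times with TMM factors, so its direction depends on the scaling.

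NLRP genes, a family of which several members are specific to the oocyte, took 0.482%, 1.47% and 0.491%, and 11 of 17 were above 1 CPM in every library. Nlrp5, Nlrp4f and Nlrp2, named above with the subcortical maternal complex, are also NLRP genes, so the shares of both groups overlap. Nlrp14 had 1535, 3711 and 1522 CPM, and Nlrp4a had 424, 2377 and 470 CPM. Nlrp9c went the other way with 696, 354 and 720 CPM. The Obox homeobox genes took 0.558%, 0.1003% and 0.490%, led by Obox2 with 2834, 378 and 2217 CPM and Obox1 with 2129, 305 and 1883 CPM. The TCL1 family took 0.366%, 0.261% and 0.364%, led by Tcl1 with 1722, 1413 and 1415 CPM. These families also hold close relatives, so the values of single members are uncertain.

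Genes of chromatin took 1.72%, 1.35% and 1.67%, and all 15 were above 1 CPM in every library. The lower sum in replicate 3 did not hold for most members. Only 4 of the 15 were lower there, and the median log2 ratio to the mean of the others was 1.11. H1foo, the oocyte linker histone, was among the steadiest of the abundant genes on the scale of total counts, with 3139, 3477 and 3296 CPM. Npm2, a histone chaperone that remodels sperm chromatin, had 1410, 879 and 1352 CPM. The maintenance DNA methyltransferase Dnmt1 had 763, 3948 and 662 CPM. Tet3, the dioxygenase that acts on the paternal genome after fertilization, had 632, 1884 and 647 CPM. Uhrf1, a partner of DNMT1, had 303, 672 and 320 CPM. The replication-dependent histones, most of whose mRNAs carry no poly(A) tail in dividing cells, took 0.0950%, 0.102% and 0.0902%.

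The transcription factors of oocyte growth were modest in share, at 0.0764%, 0.212% and 0.0781%. Foxo3, which holds primordial follicles dormant, had 203, 1128 and 196 CPM. Nobox had 286, 623 and 313 CPM and Lhx8 had 148, 248 and 149 CPM. Figla had 85.0, 12.0 and 76.5 CPM. Sohlh1, which acts early in follicle growth, was near the limit of counting with 0.469, 0 and 0.0922 CPM.

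Genes that store mRNA and control its translation took nearly the same share in each library, 0.540%, 0.544% and 0.541%, although their members did not hold steady. Zar1, a partner of stored mRNA in the oocyte, had 1396, 340 and 1319 CPM. Cpeb1, which binds the cytoplasmic polyadenylation element, had 446, 909 and 492 CPM. Eif4e1b, an oocyte cap-binding protein, had 177, 744 and 215 CPM. Dazl, a germ cell RNA-binding protein, had 345, 283 and 315 CPM. With TMM factors the share in replicate 3 became 0.662 times the mean of the others. Genes of RNA decay took 0.257%, 0.436% and 0.223%. Btg4, the adaptor of the deadenylase that clears maternal mRNA, had 1650, 1437 and 1344 CPM, and Cnot6l, a deadenylase subunit, had 226, 641 and 256 CPM. In the small RNA pathway Dicer1, which cuts the endogenous siRNAs of mouse oocytes, had 260, 853 and 174 CPM, while Piwil4 had no count.

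Genes of meiotic arrest and resumption took 0.641%, 0.478% and 0.653%. Pttg1, the securin that holds separase in check, had 3587, 674 and 3812 CPM. Mos, the kinase that maintains the later arrest at metaphase II, had 892, 619 and 898 CPM. Ccnb1, a cyclin of the maturation promoting factor, had 388, 583 and 350 CPM, and its kinase Cdk1 had 91.9, 16.1 and 94.8 CPM. Wee2, the oocyte kinase that inhibits CDK1, had 257, 546 and 299 CPM. Gpr3, the receptor that keeps cAMP high in the arrested oocyte, had 96.7, 601 and 70.6 CPM, and Pde3a, the phosphodiesterase that lowers it, had 91.0, 400 and 88.1 CPM. Gpr12, a receptor related to GPR3, had 1.99, 0.846 and 1.41 CPM. On the checkpoint side Bub1b was steady on the scale of total counts, at 739, 709 and 769 CPM.

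Energy and protein synthesis took the largest group shares in replicates 2 and 4, but with long lists. The oxidative phosphorylation list matched 90 genes and that of cytosolic ribosomal proteins 83. The ubiquitin and SCF list, described below, took 3.12% and 2.99% there with 14 genes. Nuclear genes of oxidative phosphorylation took 3.65%, 0.459% and 3.67%, led by Atp5e with 2609, 158 and 2633 CPM. Cytosolic ribosomal proteins took 3.51%, 0.885% and 3.65%, led by Rpl35 with 2262, 165 and 2315 CPM. Mitochondrial ribosomal proteins took 1.28%, 0.325% and 1.30%, and proteasome subunits 0.946%, 0.340% and 0.944%. Each of these groups was several-fold lower in replicate 3, and remained lower with TMM factors and DESeq2 size factors. Initiation factors of translation, whose median exon length was 4334 bases against 1525.5 for oxidative phosphorylation, took 0.988%, 0.908% and 0.989%.

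In the use of pyruvate and glucose, Ldhb far exceeded its sister Ldha, at 4706, 586 and 4565 CPM per kb against 13.9, 24.8 and 13.996 CPM per kb. Glycolytic Gapdh had 44.2, 19.5 and 52.5 CPM, and Pgk1 had 46.1, 12.0 and 43.8 CPM. Genes of the ubiquitin and SCF group took 3.12%, 1.28% and 2.99%, with Elobl and Ubb at its head. Skp1a, the adaptor of SCF ubiquitin ligases, had 2113, 5497 and 2330 CPM. Uchl1, a ubiquitin hydrolase abundant in oocytes, had 2431, 2516 and 2359 CPM. Among the BCL2 family, Bcl2l1 had 18.04, 49.8 and 18.2 CPM per kb, far under the values of Bcl2l10 on that scale, and Bcl2 had 0.328, 0 and 0.254 CPM. Of the chaperones, Hsp90aa1 had 3618, 3041 and 3251 CPM. In the redox group Prdx1, a peroxiredoxin, had 1963, 421 and 2277 CPM. Common reference genes varied too, with Actb at 68.6, 163 and 77.2 CPM, Ywhaz at 200, 1279 and 261 CPM and H2afz at 186, 1.86 and 166 CPM.

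Markers of the other cells of the ovary were low but not absent. The granulosa and cumulus list summed to 631, 1317 and 700 CPM over 20 genes, of which 15 were above 1 CPM in every library. Serpine2 alone gave 333, 970 and 317 CPM of this. Inha, an inhibin subunit, had 92.2, 56.8 and 135 CPM, and Gja1, the connexin of granulosa cells, had 46.5, 51.5 and 53.1 CPM. Nr5a2, a nuclear receptor of granulosa cells, had 28.6, 61.1 and 37.4 CPM, and the inhibin subunit gene Inhbb had 22.2, 66.0 and 35.7 CPM. Esr2, an estrogen receptor, had 40.1, 13.7 and 31.2 CPM, and Inhba, another inhibin subunit, had 14.2, 48.3 and 11.9 CPM. Foxl2, the granulosa transcription factor, had 5.89, 2.20 and 7.17 CPM. Fshr, the receptor of follicle-stimulating hormone, had 7.81, 2.71 and 5.93 CPM, and Cyp19a1, the aromatase, had 10.1, 7.87 and 11.5 CPM. Amh had 5, 0 and 0 counts. Has2 had 0, 0 and 6 counts, and Ptx3 had 13, 0 and 0. A count of 0 allows up to 0.0703, 0.254 and 0.0692 CPM in replicates 2, 3 and 4, at 3 counts of the library. How much of the granulosa signal came from cumulus cells left on the oocytes was not tested.

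**Figure D4:**
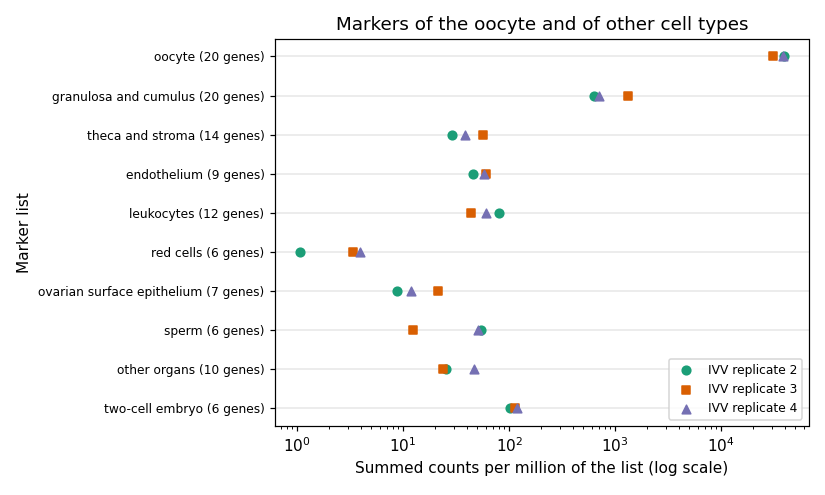
Summed CPM (log axis) of 10 marker lists in each IVV library, with the number of genes in each list beside its name and a point for each library. The oocyte list stands at 30675 to 39204 CPM, the granulosa and cumulus list at 631 to 1317, and the other lists at 1.06 to 119.

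The remaining lists were lower still. Theca and stroma markers summed to 29.1, 57.1 and 38.6 CPM over 14 genes, of which 7 had a count in every library and Insl3 had none in any. Hsd3b1, a steroidogenic enzyme, had 1.27, 15.3 and 16.9 CPM, and Cyp17a1, which makes androgens, had 0, 23.6 and 0.646 CPM and was thus found mainly in replicate 3. Endothelial markers summed to 45.4, 60.9 and 57.3 CPM, led by Pecam1 with 20.4, 38.7 and 18.2 CPM. Leukocyte markers summed to 79.8, 43.7 and 60.2 CPM, of which the complement gene C1qb gave 55.0, 19.1 and 43.8 CPM, while its partners C1qa and C1qc had no count in replicates 3 and 4. Ptprc, which marks all leukocytes, had 18, 6 and 0 counts. Red cell markers summed to 1.06, 3.39 and 3.92 CPM and those of the ovarian surface epithelium to 8.70, 21.5 and 11.9 CPM. Of the latter 5 of 7 had a count in every library, led by Upk3b with 4.39, 7.19 and 7.98 CPM, and Upk1b had none in any.

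Genes of later or unrelated states were sparse. Sperm markers summed to 54.0, 12.4 and 50.3 CPM, mostly from the protamine gene Prm2 with 50.3, 9.65 and 44.8 CPM, and Prm1 had 18, 0 and 0 counts. Markers of other organs summed to 25.5, 23.96 and 46.9 CPM. The list for the embryo after its first cleavage summed to 103, 114 and 119 CPM, most of it from Tcstv1 with 78.5, 90.9 and 89.9 CPM. Zscan4d of the same list had 2.04, 5.84 and 0.876 CPM.

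Some gene families that are silent in most tissues had more members with a count in replicate 3, and others did not. Of the 1135 olfactory receptors, the odorant receptors of the nose, 710 (62.6%) had no count in any library. A count was found for 109, 333 and 129 of them, with sums of 197, 1553 and 275 CPM. Olfr288 was the most abundant, with 99.9, 222 and 114 CPM. Of the 329 vomeronasal receptors 47, 140 and 61 had a count. Of the 57 keratin-associated proteins 5, 14 and 2 did, and 40 had none in any library. Taste receptors went with the olfactory receptors at 2, 5 and 2 of 38, while collagens differed little at 36, 40 and 38 of 44. Beta-defensins and chemokines showed no such excess, with 4 of 42 and 13 of 35 seen in replicate 3 against 7 and 25 in replicate 2. Keratins, claudins, interleukins and globins showed none either, nor did Hox genes, of which 18, 8 and 14 of 39 had a count. Of all 21897 protein-coding genes, 15694, 15255 and 15484 had a count in replicates 2, 3 and 4. The excess of receptor genes in replicate 3 was thus found in the shallowest library.

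Over all genes replicate 3 had the fewest with a count, but more that were seen in no other library. There were 4358 genes with a count in replicate 3 and in neither of the others, against 1811 for replicate 2 and 1730 for replicate 4. Their median was 15 counts in replicate 3, and 6 in replicates 2 and 4. They held 1.25% of the counts of replicate 3, 0.0463% of replicate 2 and 0.0573% of replicate 4. Of those seen in replicate 3 alone 1486 were protein-coding and 1146 were pseudogenes, and 392 were olfactory or vomeronasal receptors. The same numbers were 618, 391 and 35 for replicate 2 and 502, 423 and 46 for replicate 4. Of all 55400 genes listed, 21897 are protein-coding and 13517 are pseudogenes. The receptors were taken by symbol whatever their class, so they are not a kind apart from the protein-coding genes and pseudogenes. Among protein-coding genes 1135 are olfactory and 329 are vomeronasal receptors, and the number of receptors of any class was not counted. What these counts stem from was not tested.

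Replicates 2 and 4 lay close to each other and replicate 3 stood apart from both. Over 24911 genes with at least 10 counts in all, Spearman's correlation of CPM was 0.952 for replicates 2 and 4, 0.686 for 2 and 3, and 0.681 for 3 and 4. These are correlations across genes, which are not independent, and are given as descriptions. Of 17367 genes with a mean of at least 1 CPM, 95.3% lay within 2-fold between replicates 2 and 4, on the scale of CPM + 1. The share was 36.5% between 2 and 3 and 36.2% between 3 and 4, and 30.5% of genes lay within 2-fold in all 3 libraries. Replicates 2 and 4 differed by more than counting error, with a chi-square of 48.4 per gene. Libraries amplified from separate pools differ by more than counting error as a rule, so this value is a description. Equal counts were found for 2999 genes, of which 2722 were at 0 in both, and the other 277 were 1.25% of the 22189 genes with a count in either. All 3 libraries were kept as separate samples.

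Agreement in the first ranks followed the same split. The first 100 genes of replicates 2 and 4 shared 93, those of 2 and 3 shared 36, those of 3 and 4 shared 31, and 31 were common to all. Abundance did not by itself bring the libraries together. Of 101 genes with a mean of at least 1000 CPM, 99.01% lay within 2-fold between replicates 2 and 4 and 27.7% in all 3 libraries. Of 8427 genes between 1 and 10 CPM, the shares were 94.6% and 24.5%.

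The ratio of replicate 3 to the mean of replicates 2 and 4 rose with the exon length of the gene. Over 13668 nuclear protein-coding genes the median log2 ratio was -1.87 below 1 kb (426 genes), 0.02 from 2 to 3 kb (2051 genes) and 1.55 from 12 kb (847 genes). In the shortest class 20.9% of genes were higher in replicate 3, and in the longest class 87.8%. The ratio of replicate 4 to replicate 2 did not change with length, with medians between 0 and 0.03. Spearman's correlation with length was 0.37 for the first ratio and -0.004 for the other. The median log2 ratio of all 17367 genes was 0.52 on the scale of total counts and -0.01 with TMM factors, so a log2 ratio near 0.52 marks a gene at the middle of all genes. Those of the genes under 1 kb took 8.48%, 1.26% and 8.54% of all counts in replicates 2, 3 and 4. Whether the length pattern comes from the RNA of this pool, its amplification or its sequencing was not tested.

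**Figure D5:**
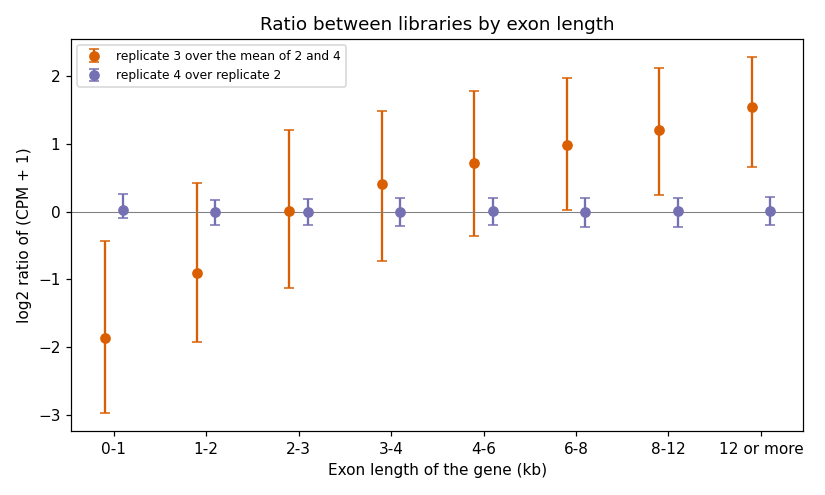
Median log2 ratio of (CPM + 1) by class of exon length (kb) over 13668 nuclear protein-coding genes, with bars from the lower to the upper quartile of genes. The ratio of replicate 3 to the mean of replicates 2 and 4 goes from -1.87 below 1 kb to 1.55 from 12 kb, and that of replicate 4 to replicate 2 stays between 0 and 0.03.

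Single genes went far beyond this. Rpl41, a very short ribosomal protein, had 45764, 16 and 49652 counts in replicates 2, 3 and 4. Ndufa12, of respiratory complex I, had 12250, 0 and 12415 counts, and Usp50 had 31648, 103 and 36002 counts. In the other direction Gm10800 had 0, 6872 and 7 counts and Hist2h3c2, a histone H3 gene, had 34, 4635 and 15 counts. Lin28a, an RNA-binding protein of early development, had 186, 3659 and 273 counts, and Cic, a transcriptional repressor, had 136, 4391 and 68 counts. These genes were picked as the extremes of this ratio among 4005 genes with a mean of at least 50 CPM. In the genes with the widest gaps between replicates 2 and 4, replicate 3 lay above both. Shroom2 had 1.97, 195 and 67.7 CPM, Pik3cd had 14.5, 751 and 259 CPM, and Tbc1d14 had 482, 969 and 24.7 CPM.

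At the other end, 12 genes were the steadiest, on the scale of total counts, of the 272 with a mean of at least 500 CPM. Rgs2, a regulator of G protein signalling, had 1896, 1755 and 1836 CPM, a coefficient of variation of 3.87%. Gja4, the connexin through which the oocyte couples to its cumulus cells, had 691, 718 and 763 CPM (4.98%). Plat, the tissue plasminogen activator, had 693, 594 and 685 CPM (8.32%). Uchl1, H1foo and Bub1b belonged to the same set. The genes were picked for their low spread, which is therefore given as a description. It also depends on the scaling. The TMM factors were 0.861, 1.32 and 0.879 in replicates 2, 3 and 4, and would lower replicate 3 against the others.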

How the data were processed

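Total RNA of 3 pools of in vivo grown GV oocytes was amplified with SMART-Seq2 and sequenced in pairs on an Illumina NovaSeq. The authors trimmed reads, aligned them to mm10 with HISAT2, quantified them with StringTie, and deposited raw whole-number counts for every Ensembl gene, 1 file per library. How the counts were taken, the annotation release and the use of strand are not given in the sources used here. The table of the whole series and the files of the other groups were not used.

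Counts were divided by the library total without CT010467.1 and given as CPM. Of 55401 identifiers, 99.5% matched GENCODE vM21, which gave symbols, classes and exon lengths. A level of 0 was bounded by 3 counts, ratios were taken on CPM + 1, and CPM per kb used the union of exons. Tools were Python 3.11.15 (pandas 2.3.3, numpy 2.4.6, scipy 1.17.1), with factors from edgeR 4.0.16 and DESeq2 1.42.0 in R 4.3.3. The formulas for the log2 ratio, the share within 2-fold and the expected number of genes at lower depth were tried on simulated counts. Those counts held counting error only, which is less than the spread seen between replicates 2 and 4. The other steps were not tested in this way. With 3 libraries of a single group no significance test was run, and no replicate block applies.

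Named genes were the first 30 by mean CPM, the first 15 per kb, leaders of each noncoding class, gene group and silent family, the marker lists, and the extremes of spread between libraries. The members, lists and rules were chosen with earlier results of these data known. The alternatives tried were leaving out each library, other totals, length correction, coding genes alone, stricter filters and other scaling factors. The length of the longest annotated transcript was added as an alternative after seeing the data. A few of the genes named by these rules are not reported here.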

Additional observations from a re-analysis of the deposited data

How the results depend on the processing

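Of 58 alternatives, 43 left a mean over the libraries within the spread between them, a count within 1.5 times, or the share of genes within 2-fold inside its 95% Wilson interval. For shares of counts and summed CPM, a mean without any single library lies within that spread by arithmetic. Those alternatives could not have moved, so they do not measure robustness. The ribosomal protein share, for example, was 2.68% with all libraries and 3.58% without replicate 3, and was among the 43. With CT010467.1 kept in the total, by the mean over the libraries, the first 10 genes took 18.4% in place of 6.498%, the first 100 took 32.6% in place of 22.2%, protein-coding genes took 81.6% in place of 93.7%, and 419 genes held 50% of counts in place of 686. These means moved through replicate 3, where the first 10 genes then took 41.1%, the first 100 took 49.3% and 114 genes held 50%, against 7.22%, 24.7% and 559 in replicate 2 and 6.76%, 23.7% and 583 in replicate 4. Counts per kb of exon gave 10.7%, 32.4% and 388 genes for the first 10, the first 100 and 50% of counts. Leaving out each library in turn gave 31 to 93 genes common to the first 100 of all libraries (31 with all), a mean Spearman correlation of 0.681 to 0.952 (0.773 with all) and 36.2% to 95.3% of genes within 2-fold (30.5% with all), in each case highest without replicate 3. TMM factors gave 32.1% of genes within 2-fold, DESeq2 size factors 32.1%, and a minimum of 10 CPM 36.2%. With the longest transcript as length, chosen after seeing the data, the correlation of the replicate 3 ratio with length was 0.42 in place of 0.37. No paired analysis was possible because the 3 libraries form a single group. Depth limits the genes near 0.0692 to 0.254 CPM.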

Other observations

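Transcripts of immunoglobulin constant regions were found in each library, and were singled out after their values were seen. Ighg1 had 60.7, 71.9 and 147 CPM in replicates 2, 3 and 4, Iglc3 had 88.9, 18.1 and 93.3 CPM, and Ighm had 35.9, 16.2 and 40.2 CPM. As a class the immunoglobulin and T cell receptor genes held 0.02635%, 0.0190% and 0.0375% of counts, from 40, 49 and 43 of 494 genes. Over all 55400 genes, 22965, 22230 and 22813 had a count, so this class was seen less often than genes at large.

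Some members of families known from other tissues were found in every library, and were singled out after their values were seen. The corneal keratin Krt12 had 225, 46.7 and 227 CPM, the beta-defensin Defb41 had 112, 19.98 and 144 CPM, the interleukin Il17b had 140, 31.4 and 151 CPM, and the homeobox gene Hoxa7 had 38.4, 126 and 34.1 CPM.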
